A study of Mus musculus with 64 samples.

Results

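The genes described here are 36 genes of fat cells and of fat making, among 55385 genes counted in mouse mammary tumors, and 35 of the 36 passed a filter on low counts. They were listed by gene name, and both the list and its division by role were made with earlier results of these data known. They fall into 15 markers of fat cells, 2 genes of brown fat, 8 enzymes and regulators of fatty acid synthesis, 6 genes of triglyceride synthesis and droplet coating, 3 genes of fatty acid uptake and 2 lipases found in many tissues. The study asked how the dose of Abi1, an adaptor of the actin-nucleating WAVE complex, affects PyMT tumors, which arise in mice that carry the polyomavirus middle T antigen in the mammary gland. Total RNA of 8 primary tumors from 4 female mice was depleted of ribosomal RNA and sequenced as stranded paired-end libraries. All mice were PyMT-positive and carried floxed Abi1 in the germline, so the controls were floxed too, and the KO mice also carried Cre driven by the MMTV promoter, which acts mainly in mammary epithelium. The Cre line was of mixed strain, and the PyMT and floxed alleles were on C57BL6. In the heterozygous pair, both fl/wt, tumors 3 and 6 came from the Cre+ KO mouse G164, and tumors 6 and 8 from the Cre- control G144. In the homozygous pair, both fl/fl, tumors 1 and 6 came from the Cre+ KO mouse G174, and tumors 6 and 9 from the Cre- control G184. As every genotype is represented by 1 mouse, p-values reflect how its tumors vary, and an effect of genotype and one of the individual mouse cannot be told apart. The pathology records of the study list G164 and G184 as older than G144 and G174, so in the heterozygous pair the KO mouse was the older and in the homozygous pair the younger, and age cannot be told apart from the other differences between the mice.

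The mammary gland lies in a pad of white fat, and a piece of a mammary tumor can hold fat cells beside tumor cells. Fat cells take up fatty acids and glucose, join fatty acids to glycerol as triglyceride, and keep it in a droplet coated by perilipins; they also secrete hormones such as adiponectin and leptin. The enzymes that build fatty acids from citrate are different in this respect, because mammary epithelium makes milk fat with them and many carcinomas use them too.

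Counts on the reverse strand were summed over the lanes and both runs of a tumor, to between 50346075 and 69264893 counts in genes. They are given as CPM, counts relative to the library total after TMM scaling. Mice were set against each other with edgeR's quasi-likelihood test, fitted to the 22187 genes that passed the filter, and a gene was called where its Benjamini-Hochberg adjusted p was at most 0.05. Abi1 itself lay at 63.1 and 66.7 CPM in G164, against 111 and 130 CPM in G144, and at 8.93 and 6.47 CPM in G174, against 114 and 122 CPM in G184 (log2 changes of -0.89 ± 0.16, adjusted p = 0.0362, and -3.94 ± 0.18, adjusted p = 0.000297), lower in both Cre+ mice. Skeletal muscle genes stood apart in tumor 3 of G164 and tumor 8 of G144, where 8 of them summed to 335 and 269 CPM, against 1.17 to 2.53 CPM in the other 6 tumors.

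Promoter sequence was looked up for the members in the RefSeq table of build GRCm38.p6, which matched 25 of the 36. The 100 bases before the start are shown for 3 of them on which the description turns, the fat-cell hormones adiponectin (Adipoq) and leptin (Lep) as fat-cell markers, and fatty acid synthase (Fasn), whose level did not pass any test. The Adipoq window lies at chr16:23146436-23146535 (plus strand), Lep at chr6:29060121-29060220 (plus strand) and Fasn at chr11:120824548-120824647 (minus strand), each read 5′ to 3′ along the gene. Capitals mark CCAAT or its complement in Adipoq and Fasn, the box bound by NF-Y, and TTGCNNAA in Lep, a core that C/EBP factors bind.
Adipoq: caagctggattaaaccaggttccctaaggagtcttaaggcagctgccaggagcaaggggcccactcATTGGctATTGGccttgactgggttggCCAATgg
Lep: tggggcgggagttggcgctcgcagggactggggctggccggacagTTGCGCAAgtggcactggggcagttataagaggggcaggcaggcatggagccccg
Fasn: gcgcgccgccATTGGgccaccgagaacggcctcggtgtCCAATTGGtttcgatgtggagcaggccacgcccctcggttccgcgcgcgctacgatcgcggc
The windows of Adipoq and Fasn each hold 3 matches to CCAAT, of which 2 in Fasn overlap on opposite strands, and the match in Lep reads alike on both strands. Windows of 250 bases before to 50 bases after the start were searched on both strands, and a member was counted where any of its promoters held the motif. Some members have several promoters, so these counts of members and the shares of single promoters beside them are in unlike units and cannot be compared directly. CCAAT was in 10 of 25 members and in 37.4% of all 32851 promoters of the table. TTGCNNAA was in 4 of 25 (Cidec, Lep, Plin1 and Pparg) and in 10.8% of all promoters. CACGTG, the box of the carbohydrate response factor and of USF, was in 3 of 25 (Lipe, Mgll and Plin2) and in 7.15% of all. TATAAA was in 2 of 25 and 13.6% of all, the sterol element TCACNCCAC in 1 of 25 (Acsl1) and 1.24% of all, and a direct repeat of AGGNCA spaced by 1 base, as PPARG binds, in 0 of 25 and 0.381% of all.

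The members spanned a wide range of levels, and several fatty acid synthesis genes, though not all, had medians above those of all fat-cell markers. Per kilobase of exon, the median level over the 8 tumors was 139 CPM per kb for Scd1, 111 for Scd2, 86.2 for Thrsp, 77.0 for Acly and 43.1 for Fasn. Me1 lay at 24.4, Acaca at 7.39 and Elovl6 at 6.99 CPM per kb. The most abundant fat-cell marker on that scale was Cfd (adipsin, a complement protease secreted by fat cells), with a median of 20.3 CPM per kb. Cebpa followed at 16.8 and Car3 at 7.12, and Adipoq lay at 2.27, Plin1 at 0.349 and Lep at 0.291 CPM per kb. Most fat-cell markers varied more between tumors than the other members did. Between the lowest and the highest tumor, 9 of the 14 tested markers spanned more than 25-fold, up to 49.5-fold for Car3 (a carbonic anhydrase abundant in fat cells). The other 5 were Lipe (1.65-fold), Cebpa (1.83-fold), Pparg (3.47-fold), Slc2a4 (5.29-fold) and Plin4 (6.89-fold). By comparison the 8 synthesis genes spanned 1.5-fold to 11.7-fold, and the 6 of them other than Scd1 and Thrsp at most 2.63-fold. The 6 genes of triglyceride synthesis and droplet coating spanned 1.37-fold to 2.03-fold.

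In summed fat-cell markers, tumor 6 of the heterozygous KO mouse G164 was the richest of the 8 tumors and those of the homozygous KO mouse the poorest. The sum of the 13 tested markers other than Cebpa was 113 and 262 CPM in G164, against 60.5 and 84.3 CPM in G144, and 50.1 and 31.2 CPM in G174, against 131 and 97.8 CPM in G184. It spanned 8.38-fold over the 8 tumors. Cebpa was the most abundant marker in CPM, and the sum of all 15 markers spanned 4.79-fold. That sum was 159 and 315 CPM in G164, against 102 and 146 CPM in G144, and 83.6 and 65.7 CPM in G174, against 176 and 142 CPM in G184. Tumor 3 of G164 thus lay above both tumors of its own control and between the tumors of G184. Tumor 6 of G164 had the highest level of 11 of the 14 tested markers, and tumor 6 of G174 the lowest of 11. Adiponectin mRNA lay at 4.10 and 12.8 CPM in G164, against 2.41 and 2.96 CPM in G144, and at 1.43 and 0.452 CPM in G174, against 6.12 and 3.31 CPM in G184. Neither pair of mice overlapped, and the tumors of a KO mouse lay 3.12-fold apart in G164 and 3.17-fold apart in G174. The log2 fold change was 1.66 ± 0.67 (SE) in heterozygotes (adjusted p = 0.184) and -2.32 ± 0.70 in homozygotes (adjusted p = 0.0713). In these bulk samples, fewer fat cells in the piece and less RNA per fat cell cannot be told apart.

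**Figure D1:**
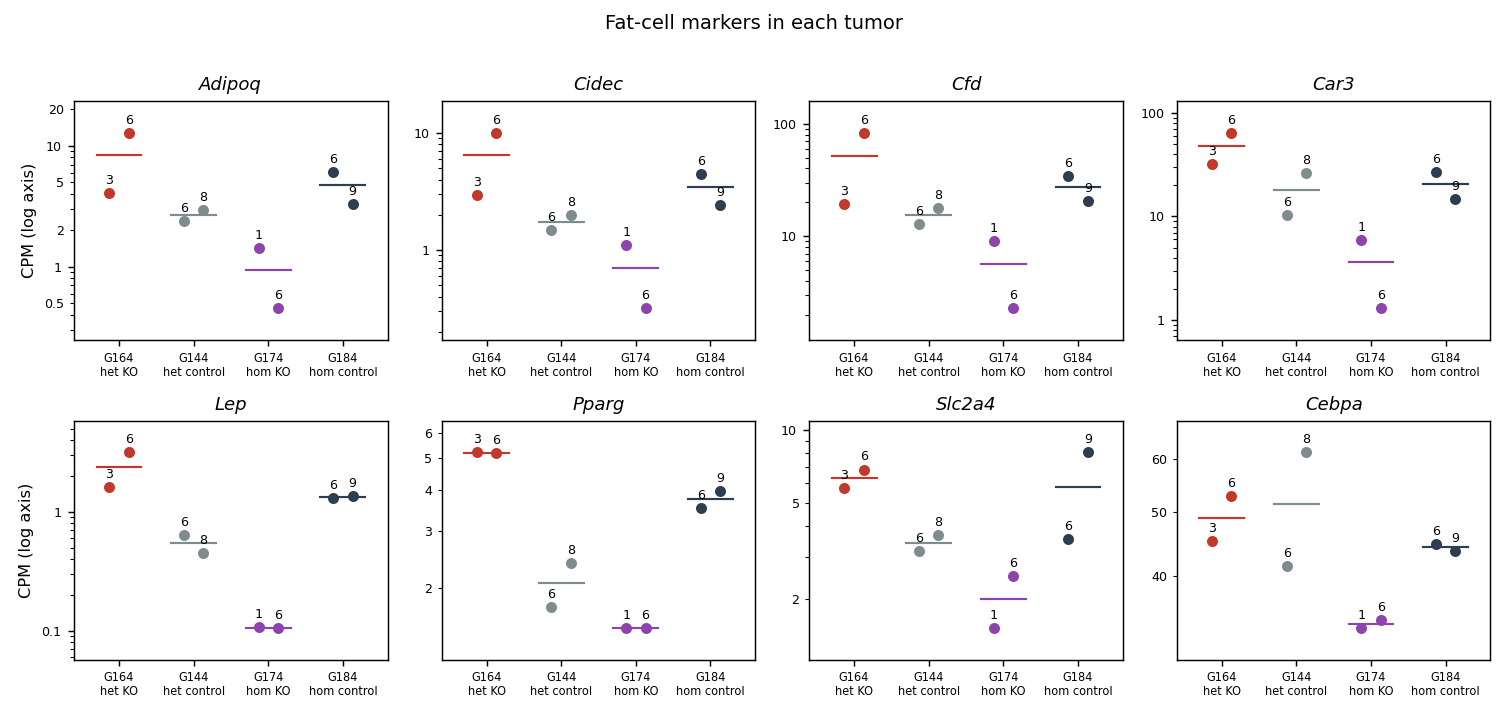
CPM (log axis) of 8 fat-cell markers in each tumor, by mouse, with each KO mouse left of its control. Points are tumors with their number, and lines are the mean of the 2 tumors. Adipoq lies at 4.10 and 12.8 CPM in G164 and at 1.43 and 0.452 CPM in G174, while Cebpa lies between 33.5 and 61.4 CPM in all 8 tumors.

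Among the fat-cell markers, leptin and PPARG had the lowest adjusted p in both KO comparisons. Lep lay at 1.62 and 3.18 CPM in G164, against 0.640 and 0.448 CPM in G144, and at 0.107 and 0.105 CPM in G174, against 1.31 and 1.35 CPM in G184. The tumors of G174 thus had 7 Lep counts each, against 93 and 87 counts in G184. Lep rose in the heterozygous KO by 2.13 ± 0.38 on the log2 scale (4.39-fold, adjusted p = 0.0357) and fell in the homozygous KO by 3.63 ± 0.44 (12.4-fold, adjusted p = 0.00613). Pparg, the nuclear receptor that directs fat-cell differentiation, lay at 5.22 and 5.18 CPM in G164, against 1.75 and 2.38 CPM in G144, and at 1.51 and 1.51 CPM in G174, against 3.53 and 3.96 CPM in G184. It too rose in heterozygotes, by 1.33 ± 0.22 (2.52-fold, adjusted p = 0.0313), and fell in homozygotes, by 1.31 ± 0.22 (2.48-fold, adjusted p = 0.0147). Both tumors of each mouse were close to each other for Pparg, within 1.36-fold. For Adipoq they lay 3.12-fold apart in G164 and 3.17-fold apart in G174, so Pparg did not follow Adipoq between the tumors of a KO mouse. The Lep gene spans chr6:29060220-29073877 and Pparg chr6:115360951-115490399 in GRCm38.

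The heterozygous folds of both genes kept their direction with each tumor left out in turn, while the calls held in 3 of these 8 fits for Lep and in 4 for Pparg. The log2 change lay between 1.57 and 2.53 for Lep and between 1.11 and 1.57 for Pparg. A fit without 1 of the tumors of G144 or G164 leaves a lone tumor in that mouse and called few genes of any kind in heterozygotes. A lost call there says little about any gene, these 2 included, while fits without a tumor of G184 keep both tumors of G144 and G164. Without tumor 6 of G144 the adjusted p was 0.193 for each, and without tumor 6 of G164 it was 0.160 for Lep and 0.150 for Pparg. It was 0.121 for Lep and 0.0781 for Pparg without tumor 8 of G144, and 0.127 for Pparg without tumor 3 of G164. For Lep it was 0.0534 without tumor 6 and 0.0515 without tumor 9 of G184. The homozygous call of Lep held with each tumor left out in turn (adjusted p between 0.00718 and 0.0345), and that of Pparg was lost without tumor 9 of G184 (0.0803) and without tumor 1 of G174 (0.0542). On the second run alone the heterozygous p of Pparg was 0.0561, and in a fit of only the mice compared those of Lep in heterozygotes and of Pparg in homozygotes were 0.0505 and 0.0516.

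These 2 genes were the only fat-cell markers called in a KO comparison: 2 of 14 were higher in the heterozygous KO (14.3%, against 2.72% of all tested genes) and 0 lower (1.29% of all), and 2 of 14 were lower in the homozygous KO (14.3%, against 7.7% of all) and 0 higher (5.44% of all). In heterozygotes, the fitted change was above 0 for 13 of 14, with a median of 1.59 on the log2 scale beside 0.02 for all tested genes, and 7 had an unadjusted p under 0.05. In homozygotes it was below 0 for all 14, with a median of -2.25 beside -0.00 for all genes, and 13 had an unadjusted p under 0.05. Both tumors of G164 lay above both of G144 for 11 of 14 markers (31.3% of all genes do so, and 28.8% lie below), and both tumors of G174 lay below both of G184 for 14 of 14 (29.9% of all genes do so, and 29.9% lie above). DESeq2 called 6 markers higher in heterozygotes (6.51% of all genes) and 11 lower in homozygotes (10.9% of all). The test of edgeR with no filter on low counts called 8 (4.25% of all) and 12 (6.69% of all).

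**Figure D2:**
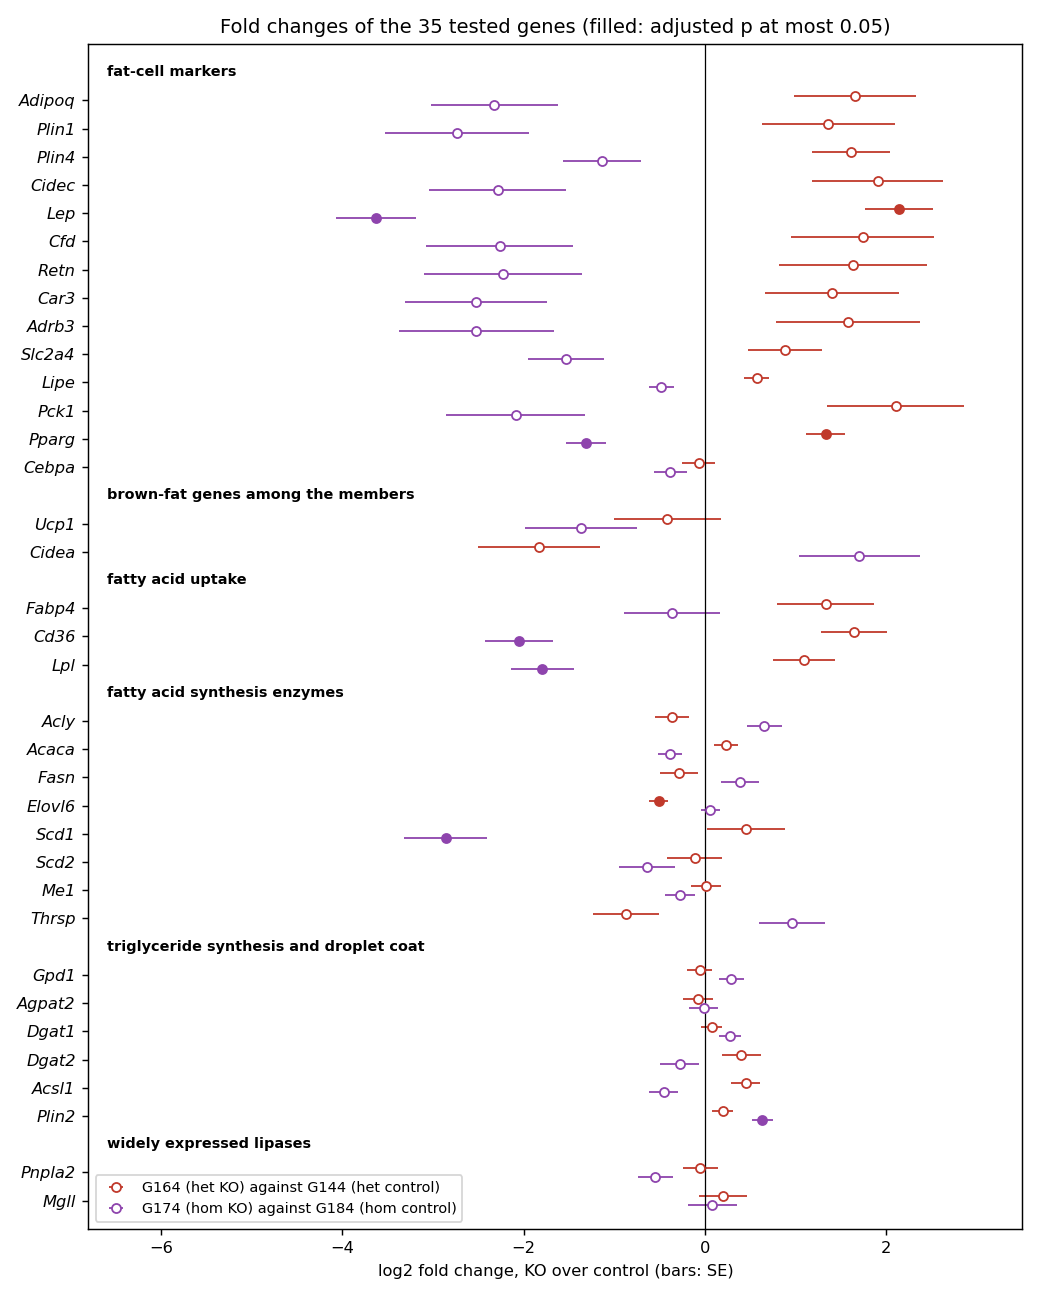
Log2 fold changes (KO over control) of the 35 tested genes, ordered by role, for the heterozygous pair (red, upper of each row) and the homozygous pair (purple, lower). Bars are standard errors and filled points have an adjusted p of at most 0.05. The fat-cell markers lie right of 0 in the heterozygous pair, except Cebpa at -0.07, and left of 0 in the homozygous pair, while most synthesis and storage genes lie near 0.

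Whether the changes in the 2 pairs differed was tested as the difference between the comparisons, homozygous minus heterozygous. This test does not ask whether the 2 changes have opposite signs, and only Lep and Pparg were called in opposite directions in the 2 comparisons. The difference was below 0 and past the threshold for 12 of 14 fat-cell markers (85.7%, against 13.1% of all tested genes), and above 0 for none (12% of all). The values ran from -5.76 ± 0.58 for Lep (adjusted p = 0.00201) to -1.05 ± 0.20 for Lipe, hormone-sensitive lipase (adjusted p = 0.0123). Between them lay the droplet coat genes Plin1 (-4.09 ± 1.08, adjusted p = 0.0343) and Plin4 (-2.74 ± 0.61, adjusted p = 0.0208), Cidec, which promotes droplet fusion (-4.19 ± 1.04, adjusted p = 0.0289), and Adipoq (-3.98 ± 0.97, adjusted p = 0.0274). Cfd, Car3, the glyceroneogenic enzyme Pck1, the beta-3 adrenergic receptor Adrb3 and the insulin-responsive glucose transporter Slc2a4 made up the rest of the called genes with Pparg. Retn (resistin) missed the threshold at -3.86 ± 1.19 (adjusted p = 0.0539), as did Cebpa at -0.31 ± 0.26 (adjusted p = 0.401), a fat-cell transcription factor that other tissues also express. The count of 12 fell to 2 without tumor 6 of G144 or without tumor 6 of G164, to 4 without tumor 8 of G144 or either tumor of G184, and to 6 without tumor 6 of G174. The share of all genes called below 0 was lower in these fits too, at 5.47% without tumor 6 of G144, 5.78% without tumor 6 of G164, and 6.92% to 11% in the other 4. All 14 markers stayed below 0 in each of the 8 fits. Their median was -3.71 without tumor 6 of G144, beside -3.95 with all tumors, and ran from -2.75 without tumor 6 of G164 to -5.33 without tumor 1 of G174. Lep and Pparg were called in all 8 of these fits, with adjusted p of at most 0.0139 and 0.0157. This difference takes in the gap between the control mice, where 11 of 14 markers lay higher in both tumors of G184 than in both of G144 (31.1% of all genes do so, and 30.3% lie below). Genes of other cell types were called below 0 in the difference as well, against 13.1% of all genes. They were 8 of 8 T and B lymphocyte genes (100%, median -4.14) and 4 of 8 each (50%) of the endothelial, macrophage and fibroblast genes. Of 7 epithelial genes, 0 were called below 0 and 1 above, and of 8 muscle genes 0 were called.

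Within each mouse, one tumor held more of most fat-cell markers than the other, and the gap was wider in the KO mice than in the controls by its median. Tumor 6 of G164 exceeded tumor 3 in 13 of 14 markers, with a median ratio of 2.65, and tumor 1 of G174 exceeded tumor 6 in 12 of 14, with a median ratio of 3.32. In the controls, tumor 8 of G144 exceeded tumor 6 in 10 of 14, with a median ratio of 1.26, and tumor 6 of G184 exceeded tumor 9 in 11 of 14, with a median ratio of 1.37. The ratio reached 4.69 for Adrb3 in G164 and 6.32 for Retn in G174. Slc2a4 went the other way in G174, at 1.52 CPM in tumor 1 and 2.48 CPM in tumor 6, and in G184, at 3.56 CPM in tumor 6 and 8.07 CPM in tumor 9. Slc2a4 is expressed in muscle as well as in fat. The 8 muscle genes summed to 1.17 CPM in tumor 1 and 2.18 CPM in tumor 6 of G174. In G184 their sum was 2.53 CPM in tumor 6 and 1.83 CPM in tumor 9. The reason for the opposite order of Slc2a4 was not tested.

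Ratios to adiponectin within a tumor varied little for some markers and much for others. Per kilobase of exon, the ratio of Cidec to Adipoq lay between 0.457 and 0.585 in all 8 tumors, a 1.28-fold span, while Adipoq itself spanned 28.3-fold. The ratio of Cfd to Adipoq spanned 1.37-fold (7.11 to 9.70) and that of Plin1 to Adipoq 1.69-fold (0.109 to 0.184). Retn, Pck1 and Adrb3 came next, with ratios that spanned 1.99-fold, 2.26-fold and 2.36-fold, and Car3 spanned 3.07-fold (1.38 to 4.24). The span was wider for Plin4 (4.12-fold), Lep (5.48-fold), Pparg (8.24-fold), Slc2a4 (10.3-fold), Lipe (17.2-fold) and Cebpa (18.5-fold). The ratio of Fabp4, a fatty acid binding protein of fat cells that endothelial cells and macrophages also make, was 3.02 and 4.93 in G174, against 0.885 and 0.920 in G184, and lay between 0.822 and 1.23 in the tumors of the heterozygous pair. For Pparg the ratio was 0.493 and 1.56 in G174, against 0.269 and 0.560 in G184, which overlap. For Lep it ranged from 0.0307 to 0.168, lowest in tumor 1 of G174, where 7 counts stand behind it. These ratios are descriptions over 8 tumors from 4 mice, and all of them share the Adipoq level as denominator.

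**Figure D3:**
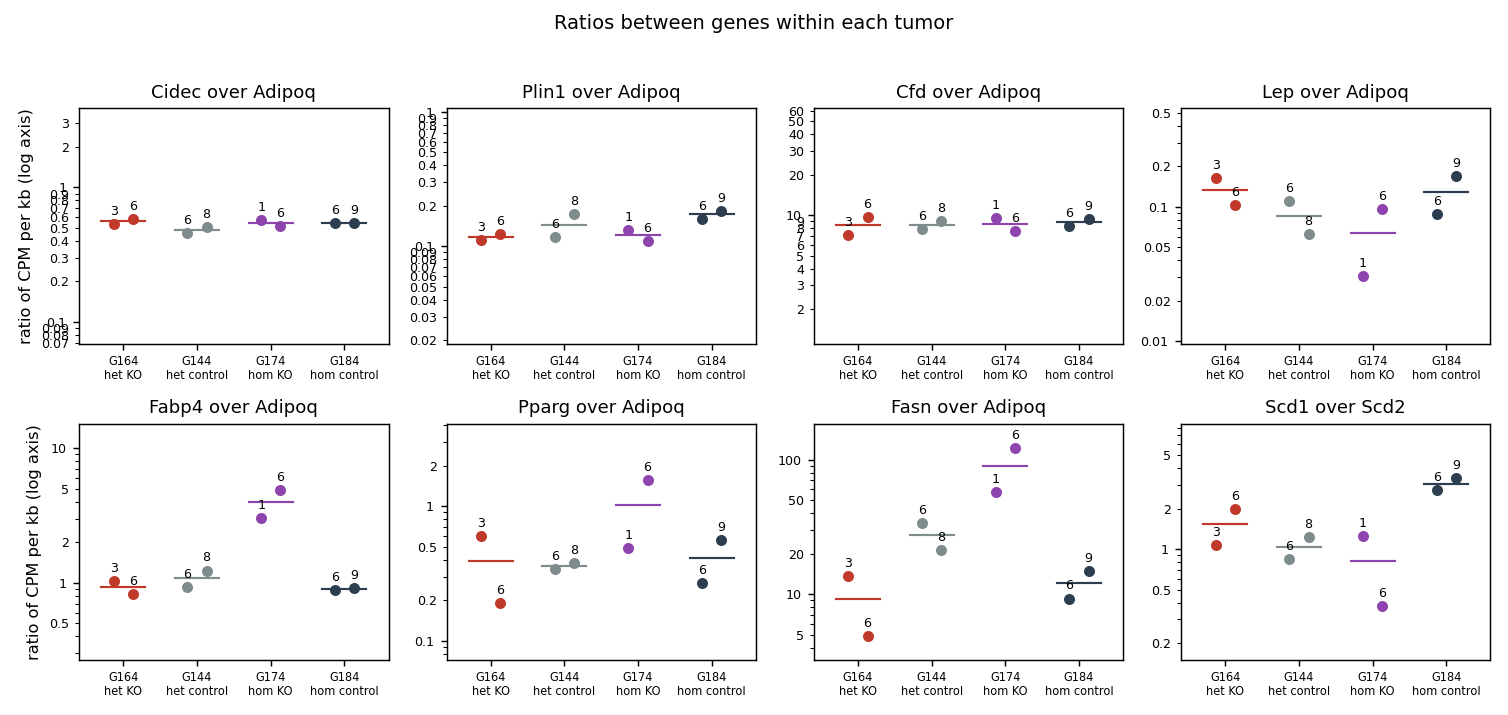
Ratios of CPM per kilobase of exon within each tumor (log axis, each panel spanning the same fold), for 7 genes over Adipoq and for Scd1 over Scd2, with each KO mouse left of its control. Points are tumors with their number, and lines are the mean of the 2 tumors. Cidec over Adipoq stays between 0.457 and 0.585, while Fasn over Adipoq runs from 4.86 to 123.

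Aquaporin 7 (Aqp7), the glycerol channel of fat cells, did not pass the filter: it had 41 counts over the 8 tumors, at most 0.192 CPM. Brown fat was scarcely represented. Ucp1, the uncoupling protein that defines it, lay between 0.0457 and 0.226 CPM in all tumors. Cidea, a droplet protein of brown fat that the mammary epithelium also makes for milk fat, went against the white-fat markers. It lay at 1.39 and 1.30 CPM in G164, against 6.11 and 3.46 CPM in G144, and at 2.67 and 6.35 CPM in G174, against 2.19 and 0.575 CPM in G184. Neither KO comparison passed the test (adjusted p = 0.151 and 0.132), and the difference between them did, at 3.53 ± 0.94 (adjusted p = 0.0354). With 1 tumor left out, that call was kept without tumor 1 of G174 or tumor 6 of G184 and lost without any other (adjusted p up to 0.112).

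The uptake genes Cd36 and Lpl followed the fat-cell markers in direction. Their errors in the KO comparisons were smaller than those of most markers, though larger than those of Pparg, Lipe and Cebpa. Cd36, a fatty acid translocase, lay at 13.5 and 29.7 CPM in G164, against 6.55 and 7.24 CPM in G144, and at 6.66 and 4.59 CPM in G174, against 24.7 and 21.9 CPM in G184. It fell in the homozygous KO by 2.05 ± 0.37 on the log2 scale (4.14-fold, adjusted p = 0.0183), and its heterozygous change was 1.65 ± 0.37 (adjusted p = 0.0559). Lpl, the lipase that frees fatty acids from circulating lipoproteins, lay at 21.2 and 44.0 CPM in G164, against 12.6 and 18.1 CPM in G144, and at 12.7 and 10.2 CPM in G174, against 38.0 and 41.3 CPM in G184. It fell in homozygotes by 1.79 ± 0.35 (3.47-fold, adjusted p = 0.0216), with a heterozygous change of 1.09 ± 0.34 (adjusted p = 0.112). The difference between the comparisons passed for both, at -3.70 ± 0.52 for Cd36 (adjusted p = 0.00498) and -2.88 ± 0.49 for Lpl (adjusted p = 0.00889), and did so with each tumor left out. The homozygous calls were lost without either tumor of G184 (adjusted p up to 0.0737 for Cd36 and 0.103 for Lpl), for both genes without tumor 6 of G174, and for Lpl without tumor 1 of G174. Fabp4 passed no test, at 13.8 and 34.2 CPM in G164, against 7.25 and 11.9 CPM in G144, and at 14.1 and 7.24 CPM in G174, against 17.6 and 9.90 CPM in G184.

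Of the 8 fatty acid synthesis genes, only Scd1, the delta-9 desaturase that makes oleate from stearate, was called in homozygotes (12.5% lower, against 7.7% of all genes). It lay at 317 and 194 CPM in G174, against 1451 and 2258 CPM in G184, and fell by 2.86 ± 0.46 on the log2 scale (7.26-fold, adjusted p = 0.0131). In the heterozygous pair it lay at 569 and 1146 CPM in G164, against 468 and 790 CPM in G144, which overlap, and the change was 0.45 ± 0.43 (adjusted p = 0.555). The difference between the comparisons was -3.31 ± 0.62 (adjusted p = 0.0126). Without tumor 9 of G184 the homozygous p was 0.0656, and without tumor 6 of G144 that of the difference was 0.0527. The paralog Scd2 lay between 283 and 744 CPM and passed no test, so the ratio of Scd1 to Scd2 per kilobase was 1.25 and 0.377 in G174, against 2.75 and 3.39 in G184. Both genes lie on chromosome 19, Scd1 at chr19:44394455-44407879 and Scd2 at chr19:44293674-44306864 (GRCm38). Reads that map to several places were not counted.

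Fasn and its supply enzymes were high in every tumor, and neither KO comparison called any of them. Fasn lay at 443 and 493 CPM in G164, against 641 and 500 CPM in G144, and at 653 and 440 CPM in G174, against 450 and 389 CPM in G184, with log2 changes of -0.29 ± 0.21 and 0.38 ± 0.21 (adjusted p = 0.439 and 0.259). Acly, which cleaves citrate to cytosolic acetyl-CoA, lay at 372 and 396 CPM in G164, against 573 and 416 CPM in G144, and at 511 and 501 CPM in G174, against 368 and 275 CPM in G184. Its difference between the comparisons was above 0, at 1.02 ± 0.27 (adjusted p = 0.0338, and 0.0566 when scaled by library size alone), opposite to the fat-cell markers. It was kept without tumor 8 of G144 or tumor 6 of G184 and lost without any other tumor (up to 0.0964). Acaca, the acetyl-CoA carboxylase of the cytosol, and Me1, the malic enzyme that supplies NADPH, passed no test and stayed within 105 to 157 and 72.9 to 111 CPM.

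Thrsp (Spot 14, an activator of lipid synthesis in mammary gland and liver) and the elongase Elovl6 were highest in the heterozygous control. Thrsp lay at 160 and 204 CPM in G164, against 343 and 321 CPM in G144, and at 233 and 173 CPM in G174, against 146 and 63.3 CPM in G184. Its difference between the comparisons was 1.83 ± 0.51 (adjusted p = 0.0405, and 0.0564 when scaled by library size alone), while neither comparison alone passed (0.190 and 0.123). The difference was kept without tumor 6 of G174 or either tumor of G184 and lost without any other (up to 0.117). Elovl6 lay at 41.1 and 46.5 CPM in G164, against 61.4 and 63.4 CPM in G144. It fell in heterozygotes by 0.51 ± 0.10 (1.42-fold, adjusted p = 0.0467), a call that was lost with any one of the 8 tumors left out, with either run alone, in a fit of only the mice compared (0.0526), and when scaled by library size alone (0.0784). In the homozygous pair it lay at 45.2 and 43.5 CPM in G174, against 44.6 and 40.6 CPM in G184, and the difference between the comparisons was 0.57 ± 0.15 (adjusted p = 0.0316, 0.0674 when scaled by library size alone, and 0.0579 with no filter on low counts), kept without tumor 6 of G174 or tumor 6 of G184 and lost without any other tumor (up to 0.110).

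**Figure D4:**
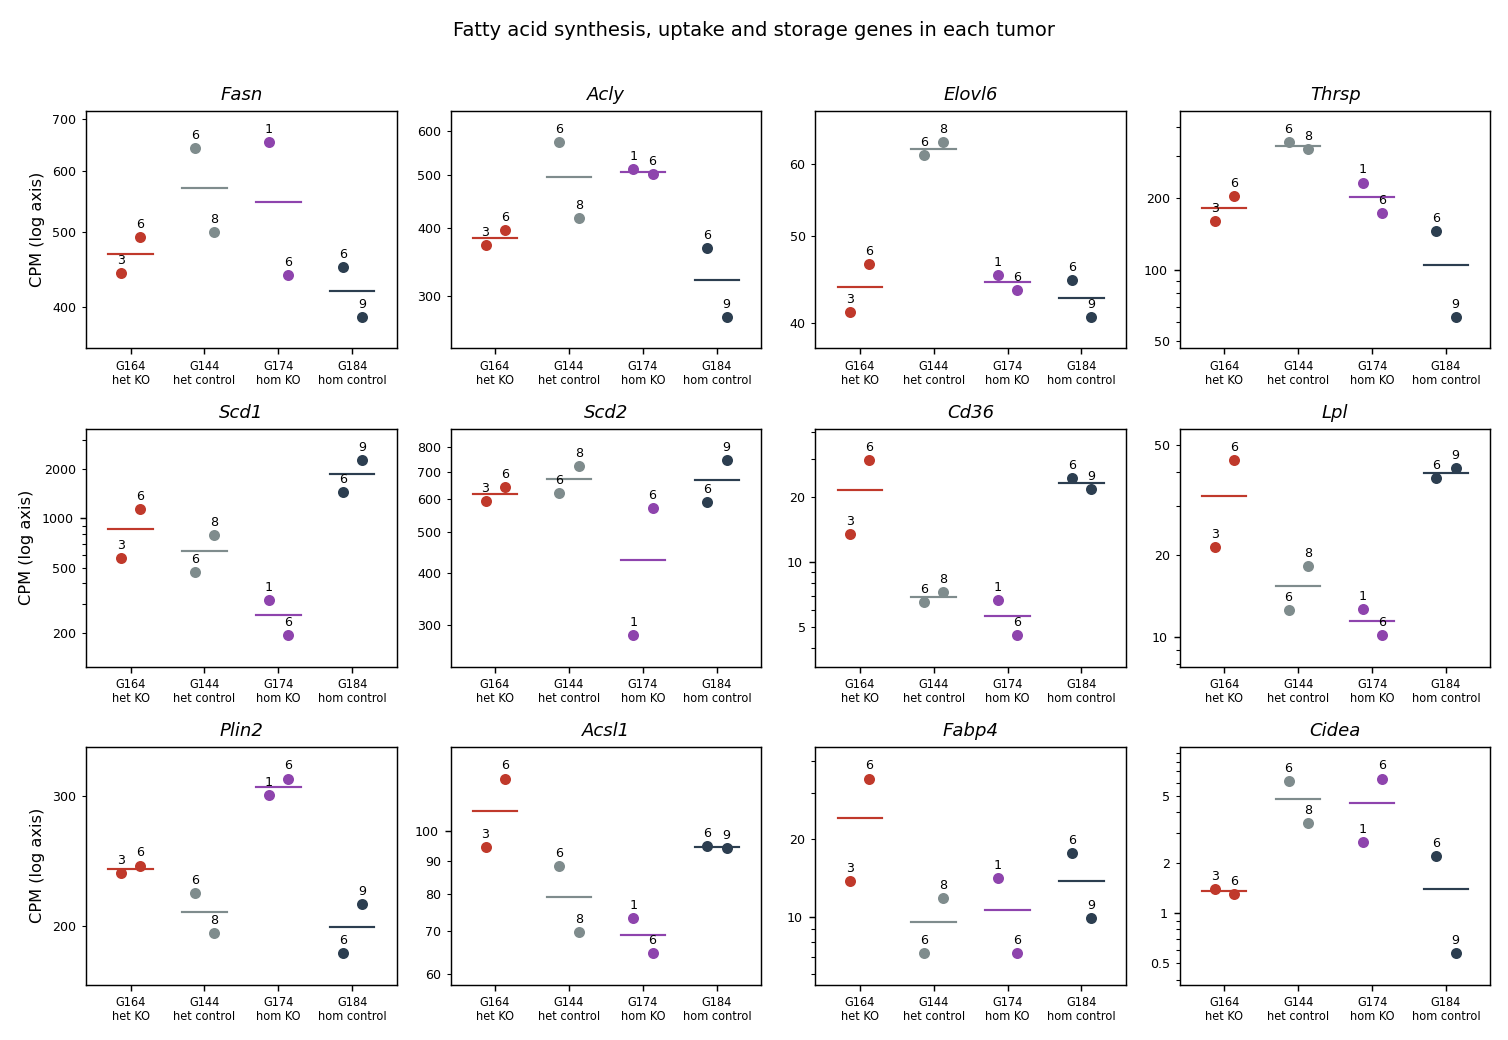
CPM (log axis) of 12 genes of fatty acid synthesis, uptake and storage in each tumor, by mouse, with each KO mouse left of its control. Points are tumors with their number, and lines are the mean of the 2 tumors. Scd1 lies at 317 and 194 CPM in G174 and at 1451 and 2258 CPM in G184, while Fasn lies between 389 and 653 CPM in all 8 tumors.

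Most triglyceride synthesis genes passed no test. Gpd1, which makes glycerol 3-phosphate, lay between 29.4 and 48.0 CPM, Agpat2 and Dgat1, an acyltransferase of the phosphatidate step and one of the last step, between 22.8 and 32.9 and between 27.5 and 37.6 CPM, and Dgat2, another of the last step, between 7.89 and 16 CPM. These 4 were not called in any comparison. Acsl1, the acyl-CoA synthetase that activates fatty acids, passed only as a difference between the comparisons, at -0.90 ± 0.23 (adjusted p = 0.0295), a call lost without tumor 8 of G144, tumor 6 of G164, tumor 6 of G174 or either tumor of G184 (up to 0.0978). Plin2, the droplet coat protein of cells other than fat cells, rose in the homozygous KO. It lay at 301 and 317 CPM in G174, against 184.1 and 215 CPM in G184, a log2 change of 0.63 ± 0.11 (1.55-fold, adjusted p = 0.0184), and at 236 and 242 CPM in G164, against 222 and 196 CPM in G144 (0.19 ± 0.11, adjusted p = 0.333). The call was lost without tumor 6 (0.0599) or tumor 9 (0.0509) of G184, in a fit of only the mice compared (0.0715) and without the muscle-bearing tumors (0.0746), with log2 changes between 0.55 and 0.75 in these fits. The lipases Pnpla2, which opens triglyceride breakdown, and Mgll, which ends it, passed no test and stayed within 57.1 to 101 and 45.9 to 80.3 CPM.

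Over all 35 tested genes, 2 were called higher (5.71%, against 2.72% of all tested genes) and 1 lower (2.86%, against 1.29%) in heterozygotes. In homozygotes 1 was called higher (2.86%, against 5.44%) and 5 lower (14.3%, against 7.7%). The difference called 4 higher (11.4%, against 12%) and 16 lower (45.7%, against 13.1%). In the 21 tested genes that are no fat-cell markers, the difference called 4 higher (19.0%, against 12% of all) and 4 lower (19.0%, against 13.1%), shares closer to those of all genes than the 85.7% of the markers. In the whole set, 18 genes lay higher and 5 lower in both tumors of G164 than in both of G144 (31.3% and 28.8% of all genes). In the homozygous pair, 6 lay higher and 23 lower in both tumors of G174 than in both of G184 (29.9% of all genes each way).

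The control mice, which differ in floxed dose without Cre and in age, were themselves apart at some of these genes. With G184 set against G144, 3 of 35 genes were higher (8.57%, against 6.17% of all tested genes) and 2 lower (5.71%, against 6.4%). The higher ones were Cd36 (1.76 ± 0.37, adjusted p = 0.0274), Lpl (1.37 ± 0.34, adjusted p = 0.0449) and Pparg (0.86 ± 0.22, adjusted p = 0.0456), and the lower ones Thrsp (-1.67 ± 0.37, adjusted p = 0.0314) and Elovl6 (-0.55 ± 0.10, adjusted p = 0.0211). This comparison shares its samples with both KO comparisons, so a high control lowers the KO fold and the reverse. None of the 5 calls was left without tumor 6 or tumor 8 of G144 or without tumor 9 of G184, where 0.884%, 4.43% and 1.56% of all genes were called, against 6.17% higher and 6.4% lower with all tumors. Some of the 5 calls were also lost without a tumor of G164 or G174, and those of Cd36, Lpl and Pparg without tumor 6 of G184. In that last fit their log2 changes were 1.66, 1.41 and 0.93. Pparg was not called with any 1 tumor left out (adjusted p between 0.0549 and 0.205), with no filter (0.0639), on the second run alone (0.0783) or in a fit of only the mice compared (0.103), with a log2 change between 0.64 and 1.09 in the 8 fits that left out a tumor. In the fit of only the mice compared Thrsp was not called either (0.0611).

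Genes outside the 36 that belong to the same pathways were described for context, by lists written with earlier results of these data known. Of 16 other fat-cell genes, 1 was called lower in homozygotes (Acacb, the mitochondrial acetyl-CoA carboxylase), a share of 6.25% against 7.7% of all genes. The difference between the comparisons called 3 lower (Acacb, Nat8l and Adig), a share of 18.8% against 13.1% of all, with 0 higher in either. The fitted change was above 0 for 12 of the 16 in heterozygotes (median 0.42) and below 0 for 14 in homozygotes (median -0.76). The difference was below 0 for 14 (median -1.15), and 11 had an unadjusted p under 0.05 there by the edgeR test. Acacb lay at 12.1 and 7.0 CPM in G174, against 21.0 and 29.4 CPM in G184, and fell by 1.40 ± 0.34 on the log2 scale (adjusted p = 0.0392). Of 7 other brown-fat genes, 5 were tested, and 1 was called lower in homozygotes (20%, against 7.7% of all genes). That was Dio2, the deiodinase that activates thyroid hormone, which fell by 1.41 ± 0.21 (adjusted p = 0.0109). Of 21 regulators and targets of sterol and fatty acid synthesis, 0 were called in heterozygotes and 1 in homozygotes (4.76%, higher, against 5.44% of all). That one was Insig1, which retains SREBP in the endoplasmic reticulum. It lay at 71.5 and 57.1 CPM in G174, against 42.2 and 37.6 CPM in G184, and rose by 0.69 ± 0.17 (adjusted p = 0.0399). Srebf1, the gene of SREBP-1, lay between 683 and 1424 CPM and was not called in any comparison.

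Genes of other cell types differed between the mice as well, and their part in the results was not tested. The 13 fat-cell markers summed above made up at most 0.0262% of the counts. The 8 T and B lymphocyte genes summed to 17.7 and 40.5 CPM in G164, against 6.38 and 7.35 CPM in G144, and to 4.22 and 4.32 CPM in G174, against 17.1 and 15.7 CPM in G184. Of these 8, 3 were called higher in heterozygotes (37.5%, against 2.72% of all genes) and 5 lower in homozygotes (62.5%, against 7.7% of all), among them Cd3e, a subunit of the T cell receptor complex, with log2 changes of 1.74 ± 0.24 (adjusted p = 0.0249) and -2.50 ± 0.25 (adjusted p = 0.00356). The B cell gene Ms4a1 stood at 9.59 CPM in tumor 6 of G164, the tumor richest in fat-cell markers, and at most 0.877 CPM elsewhere.

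The 8 fibroblast and progenitor genes summed to 1051 and 1082 CPM in G164, against 499 and 533 CPM in G144, and to 698 and 349 CPM in G174, against 762 and 707 CPM in G184. Of these 8, 3 were called higher in heterozygotes (37.5%, against 2.72% of all) and 1 lower in homozygotes (12.5%, against 7.7% of all), with Pi16, a marker of fibroblast progenitors, rising by 2.04 ± 0.29 (adjusted p = 0.0257), and the matrix proteoglycan Dcn changed in both, by 1.46 ± 0.30 (adjusted p = 0.0470) and -2.03 ± 0.30 (adjusted p = 0.0106). Macrophage genes gave 1 higher of 8 in heterozygotes (12.5%, against 2.72% of all) and 3 lower in homozygotes (37.5%, against 7.7%), the lower ones including Csf1r (-1.29 ± 0.21, adjusted p = 0.0130) and Aif1 (-1.62 ± 0.20, adjusted p = 0.00628). Of 8 endothelial genes, 1 was higher in heterozygotes (12.5%, against 2.72% of all; Vwf, 0.91 ± 0.17, adjusted p = 0.0407) and 2 were lower in homozygotes (25%, against 7.7%; one of them Cd300lg, -1.29 ± 0.25, adjusted p = 0.0205). The 7 epithelial genes varied least, between 3577 and 4361 CPM in sum. Epcam was the only one called in a KO comparison, higher in homozygotes (0.43 ± 0.11, adjusted p = 0.0455), a share of 14.3% against 5.44% of all genes. Among 8 genes of milk proteins and milk fat secretion, Lalba was the only one called in a KO comparison, lower in homozygotes (12.5%, against 7.7% of all genes). It lay at 40.3 and 31.1 CPM in G174, against 211 and 252 CPM in G184 (-2.70 ± 0.59, adjusted p = 0.0303).

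**Figure D5:**
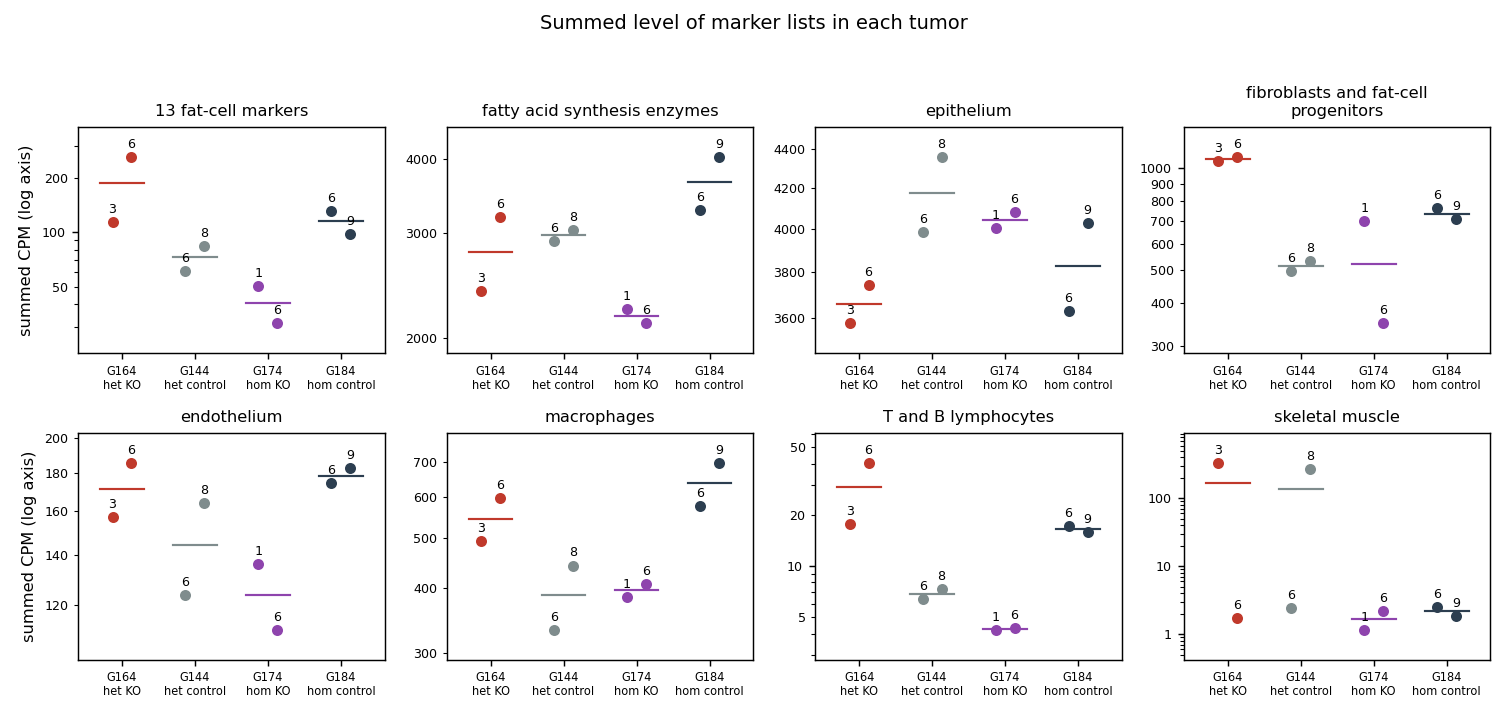
Summed CPM (log axis) of 8 gene lists in each tumor, by mouse, with each KO mouse left of its control. Points are tumors with their number, and lines are the mean of the 2 tumors. The sum of the 13 tested fat-cell markers other than Cebpa runs from 31.2 to 262 CPM and the lymphocyte sum from 4.22 to 40.5 CPM. The epithelial sum stays between 3577 and 4361 CPM and the muscle sum is high in tumor 3 of G164 and tumor 8 of G144.

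Of the muscle genes, Myh4 lay at 119 CPM in tumor 3 of G164 and 65.3 CPM in tumor 8 of G144, against at most 0.229 CPM elsewhere. The highest sum of fat-cell markers was in the other tumor of G164, while in G144 the muscle-bearing tumor had the higher sum (84.3 against 60.5 CPM). The ratio of Car3 to Adipoq per kilobase was 3.75 and 4.24 in these 2 tumors. It lay between 1.38 and 2.41 in the tumors other than these, and a part of muscle in it was not tested. With both of these tumors left out, an alternative chosen after seeing the data, 0 of the 36 genes were called in heterozygotes, where 1 of 22840 genes was called at all. In homozygotes 4 were called, all lower (Lep, Scd1, Cd36 and Lpl; 2.46% of all genes were lower), and in the difference 5, all below 0 (4.08% of all genes). The 5 were Lep, Pparg, Scd1, Cd36 and Lpl, so 2 fat-cell markers were called in place of 12. The fitted differences of the other 10 were larger than with all tumors, at -4.73 for Adipoq, -5.21 for Plin1 and -5.05 for Cidec, and the median over the 14 markers was -4.65, beside -3.95 with all tumors.

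Strand bears on some of the members, because 11 of the 36 share exon sequence with another annotated gene, in 10 cases on the opposite strand. For Lipe, which shares 918 bases with an antisense gene, the unstranded count was 0.658 of the reverse-strand count, and the ratio was 0.746 for Gpd1 and 0.783 for Adrb3. Unstranded counting drops reads that lie in both genes. The number of calls among the 36 genes was the same with unstranded counts in heterozygotes, homozygotes and the controls, and 21 in place of 20 in the difference.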

How the data were processed

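Total RNA of 8 tumors, 2 from each of 4 PyMT mice, was sequenced in 2 runs of 4 lanes each. The authors converted base calls with bcl2fastq, mapped them with STAR on build GRCm38/mm10 and deposited raw counts per gene and lane, with an unstranded, a forward-strand and a reverse-strand column (versions and annotation release not given in the sources used here). They also deposited counts summed per mouse, which equal the unstranded sums at all 55381 genes listed. The forward strand held 4.76% to 6.80% of stranded counts, so reverse-strand counts were used, summed per tumor; runs and lanes are no replicates. Reads counted in a gene made up 48.0% to 52.3% of a library and 10.5% to 14.2% mapped to several places; reads outside genes were left out. Symbols and places come from GENCODE M21, which held 54487 of the 55385 gene identifiers with their version.

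filterByExpr of edgeR 4.0.16 (R 4.3.3) with the mouse as group kept 22187 genes. The quasi-likelihood fit with TMM scaling took all 8 tumors and the 4 mice as groups, with 4 residual degrees of freedom. The heterozygous comparison set G164 against G144 and the homozygous one G174 against G184; the others were homozygous minus heterozygous (difference) and G184 against G144 (controls), adjusted by Benjamini-Hochberg over all tested genes. An SE is the size of the log2 fold change over the root of the F statistic. Scripts were tested on simulated data. Members, lists and tests were chosen with earlier results of these data known. All 36 members are named; from each other list, the 2 genes with the largest change among those called in a KO comparison, or the most abundant where none was, with Nat8l, Adig and Srebf1 named after their values were seen. Alternatives were DESeq2 (1.42.0) size factors, library size alone, no filter, unstranded counts, either run alone, the DESeq2 test, a fit of only the mice compared, and leaving out each tumor; a fit without the muscle-bearing tumors was added after seeing the data. Python 3.11.15 and pandas 2.3.3 served for the tables. Some single genes are left out of this account.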

Additional observations from a re-analysis of the deposited data

Results flagged for a closer look

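Of the 35 tested genes, 20 had effects in the homozygous and heterozygous pairs that differed by the test of the difference itself (edgeR, adjusted p of at most 0.05 over all genes), given here as homozygous minus heterozygous log2 fold change. Below 0 were Lep (-5.76), Pck1 (-4.19), Cidec (-4.19), Adrb3 (-4.10), Plin1 (-4.09), Cfd (-4.002), Adipoq (-3.98), Car3 (-3.93), Plin4 (-2.74), Pparg (-2.64), Slc2a4 (-2.42) and Lipe (-1.05) among the fat-cell markers. Also below 0 were Cd36 (-3.70), Scd1 (-3.31), Lpl (-2.88) and Acsl1 (-0.90). Above 0 were Cidea (3.53), Thrsp (1.83), Acly (1.02) and Elovl6 (0.57). All 4 mice enter each value. With 2 tumors in a group, single tumors could not be screened for outlying values.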

How the results depend on the processing

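The calls among the 36 genes (heterozygous 3, homozygous 6, difference 20, controls 5) depended on the filter and tool and on single tumors more than on scaling. With no filter on low counts there were 14, 22 and 11 in heterozygotes, homozygotes and controls, and with DESeq2 11, 18 and 10, against 8, 12 and 3 and against 6, 11 and 2 for the fat-cell markers alone (2, 2 and 1 in the reported fit); the cause was not tested. Over all genes, 890, 2917 and 2787 of 22187 were called in the reported fit (4.01%, 13.1% and 12.6%). With no filter it was 2614, 4575 and 4158 of 39660 (6.59%, 11.5% and 10.5%), so the share was lower in homozygotes and controls. With DESeq2 it was 2650, 4411 and 4344 (12.5%, 20.1% and 24% of the genes it tested). The second run alone gave 1 of the 36 and 1 marker in heterozygotes (3.54% of all genes were called) and 0 markers in the controls (12.8% of all). A fit of only the mice compared gave 1 marker in heterozygotes, 1 in homozygotes and 2 in the controls, with 6.63%, 4.67% and 7.3% of all genes called. Without the muscle-bearing tumors, a fit of fewer samples chosen after seeing the data, 0 of the 36 were called in heterozygotes, 5 in the difference and 0 in the controls, and 0, 1, 2 and 0 markers in the 4 comparisons, while all genes gave 1, 788, 1450 and 91 calls. Leaving out 1 tumor at a time, where a lone tumor is taken to vary like the other mice, gave 0 to 2 in heterozygotes, 1 to 6 in homozygotes, 5 to 18 in the difference and 0 to 4 in the controls, and for the markers 0 to 2, 1 to 3, 2 to 13 and 0 in every such fit (1 in the reported fit, Pparg). The count of 6 in homozygotes fell to 1 without tumor 9 of G184, where 532 of all genes were called. DESeq2 size factors and unstranded counts kept all 34 calls, and no called value changed sign under any alternative. No paired analysis was possible because the mice share only tumor number 6. Depth limits Aqp7 (41 counts), Ucp1 (76 counts) and Lep in G174 (7 counts per tumor); the 2 tumors of a mouse limit the rest.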
